A study of Mus musculus with 8 samples.

Results

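Neutrophil granule genes were followed across 4 groups of cultured mouse fetal liver progenitors. The set has 10 genes in 3 classes, found on 1-colour expression arrays by gene name (Elane also under its older name Ela2). The primary granule genes are Mpo, Elane, Prtn3 and Ctsg, the secondary granule genes are Ltf, Ngp, Camp and Lcn2, and the S100 genes are S100a8 and S100a9. They are represented by 12 probes, and all 10 genes were among the 19141 genes tested.

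The cells were early erythroid progenitors from fetal liver of C57BL/6 embryos at E14.5. Per the labels, cells bearing lineage markers, Sca-1, CD16/32, CD41 or CD34 were removed with magnets, and flow sorting then kept c-kit positive cells among the 10% with least CD71; the depletion of CD16/32-bearing cells is a gate that removes granulocyte and macrophage progenitors. All groups were infected with a virus and cultured for 3 days before total RNA was taken. The groups, with 2 arrays each, were shRNA2_+DEX and shRNA1_+DEX (viruses encoding different short hairpin RNAs against an RNA-binding protein, cultured with DEX), Control_+DEX (control virus, with DEX) and Control_-DEX (control virus, without DEX). DEX, here taken as dexamethasone, is a glucocorticoid; the labels do not name the RNA-binding protein, which knowledge of the published study gives as Zfp36l2. The labels do not say whether the arrays of a group came from separate cultures or embryos, so p-values speak only to the spread between arrays, and that spread may be technical.

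Neutrophils store antimicrobial proteins in granules that are filled in order as the cell matures. Primary (azurophil) granules are made at the promyelocyte stage and hold myeloperoxidase and serine proteases, while secondary (specific) granules are made later, at the myelocyte and metamyelocyte stages. C/EBP epsilon and PU.1 are transcription factors long known to act on these genes, and S100A8 and S100A9 form a calcium-binding heterodimer that is abundant in the cytosol of neutrophils and monocytes.

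The promoters of the 10 genes are shown because the genes moved together across the arrays while the 2 granule classes differed in size of change. All 10 matched a RefSeq promoter of build GRCm38.p6, taken from 250 bases before to 50 bases after the gene's start. For 9 of them 60 bases read 5′ to 3′ on the gene's strand are given, with the match to a motif in capitals: GAGGAA, a PU.1 core, in the 4 primary granule genes, and TTNNGNAA, a loose C/EBP half-site pair, in the others.
Mpo (chr11:87793556-87793615, plus strand): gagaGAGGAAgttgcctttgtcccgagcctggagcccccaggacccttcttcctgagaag
Elane (chr10:79886200-79886259, plus strand): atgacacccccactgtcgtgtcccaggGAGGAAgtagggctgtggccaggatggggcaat
Prtn3 (chr10:79879545-79879604, plus strand): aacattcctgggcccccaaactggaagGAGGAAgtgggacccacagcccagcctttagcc
Ctsg (chr14:56102758-56102817, minus strand): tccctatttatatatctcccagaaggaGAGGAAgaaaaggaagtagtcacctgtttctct
Ltf (chr9:111019213-111019272, plus strand): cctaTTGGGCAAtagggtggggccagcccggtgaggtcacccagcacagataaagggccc
Ngp (chr9:110419666-110419725, plus strand): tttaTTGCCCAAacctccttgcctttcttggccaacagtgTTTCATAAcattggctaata
Lcn2 (chr2:32387922-32387981, minus strand): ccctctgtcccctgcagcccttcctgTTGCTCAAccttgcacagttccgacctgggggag
S100a8 (chr3:90668928-90668987, plus strand): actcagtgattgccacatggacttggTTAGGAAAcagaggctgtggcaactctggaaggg
S100a9 (chr3:90695796-90695855, minus strand): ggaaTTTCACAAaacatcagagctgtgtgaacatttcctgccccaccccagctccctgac

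Both strands were searched. GAGGAA was present in all 4 primary granule promoters, in 2 of 4 secondary ones (Ltf and Lcn2) and in 1 of 2 S100 promoters (S100a8), against 28.3% of 32851 mouse promoters of the same length. TTNNGNAA was present in 0 of 4 primary, 3 of 4 secondary and both S100 promoters, against 40.7% of all promoters; these letters were not in the Camp window. TGTGGT, a RUNX core, was in 3 of the 10 promoters (Ctsg, Ltf and S100a9), against 16.8% of all, and the palindromic glucocorticoid response element, with no mismatch allowed, was in 0 of the 10, against 0.00913% of all. In these windows no match of one motif overlapped a match of another. A match is a description of letters only and shows neither binding nor a cause.

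On mouse build mm9, the build of the array's own probe coordinates, several of the genes lie close together. The Prtn3 and Elane probes were 6.2 kb apart on chromosome 10, and those of S100a8 and S100a9 22.7 kb apart on chromosome 3. Camp, Ngp and Ltf lie in this order on chromosome 9, with 574.3 kb between the probes of Camp and Ngp and 618.1 kb between those of Ngp and Ltf.

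The 8 arrays fell on 2 slides, with replicate 1 of every group on one and replicate 2 of every group on the other. Values are the normalized log2 signal, that is the log2 processed signal minus the 75th percentile of its array, so that a value of 1 is a doubling; they compare 1 probe between arrays and never 1 probe with another. The 75th percentile of signal ranged from 476.2 to 2061 across arrays. Between the replicates of a group 8180 genes differed by at least 2-fold in shRNA2_+DEX, 7587 in shRNA1_+DEX, 3676 in Control_+DEX and 2470 in Control_-DEX. Of 12 erythroid genes 11 were tested, and all 11 were well above background on every array. Tested genes had already passed a background filter in 1 or more groups. The 10 megakaryocyte and 5 tested lymphoid markers were also above background on every array, so this count does not set the labelled cell type apart. Zfp36l2 was at 4.12 and 3.70 in shRNA2_+DEX and at 4.09 and 3.92 in shRNA1_+DEX, against 5.55 and 5.42 in Control_+DEX, and at 3.49 and 3.85 in Control_-DEX. All 12 granule gene probes were well above background on 8 of 8 arrays, and none was saturated.

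**Figure D1:**
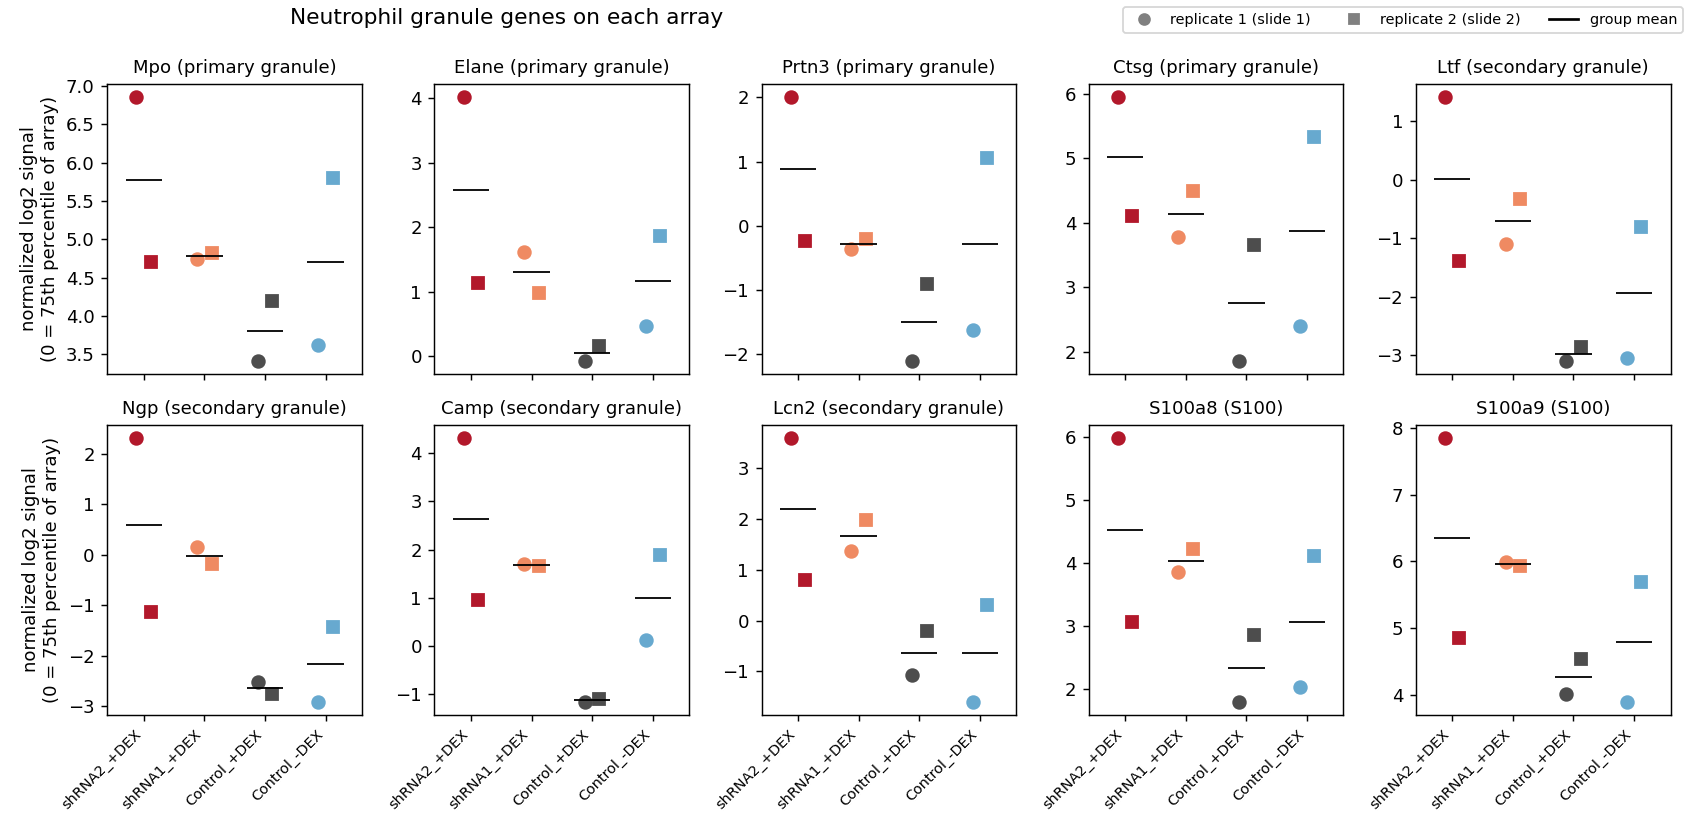
Normalized log2 signal (vertical axis, 0 is the 75th percentile of the array) of each granule gene on each of the 8 arrays, by group; circles are replicate 1, squares replicate 2 and lines the means of 2 arrays. shRNA2_+DEX replicate 1 is the highest array for all 10 genes, and both arrays of each shRNA group lie above both Control_+DEX arrays in every panel.

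In every granule gene, both arrays of each shRNA group lay above both Control_+DEX arrays. The secondary granule genes had the larger differences and the primary granule and S100 genes the smaller ones, and none of these differences passed the test over all genes. One array, shRNA2_+DEX replicate 1, was the highest of the 8 for all 10 genes. The summed monocyte, megakaryocyte and eosinophil markers were highest on that array too. The lowest array was Control_+DEX replicate 1 for 7 genes and Control_-DEX replicate 1 for 3. Shares of all genes that were highest or lowest on these arrays are not given, so the counts describe only the members.

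Among the primary granule genes, Mpo encodes myeloperoxidase, which makes hypochlorous acid. Its normalized log2 signal was 6.86 and 4.70 in shRNA2_+DEX, 4.74 and 4.82 in shRNA1_+DEX, 3.42 and 4.19 in Control_+DEX, and 3.62 and 5.80 in Control_-DEX. The other 3 arrays with an shRNA sat close together between 4.70 and 4.82, below shRNA2_+DEX replicate 1 and Control_-DEX replicate 2.

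Elane, the gene for neutrophil elastase, had 4.02 and 1.13 in shRNA2_+DEX, 1.61 and 0.98 in shRNA1_+DEX, -0.07 and 0.15 in Control_+DEX, and 0.46 and 1.86 in Control_-DEX. Both Control_+DEX arrays lay below all 6 others. Prtn3, which encodes proteinase 3, had 2.01 and -0.23 in shRNA2_+DEX, -0.36 and -0.21 in shRNA1_+DEX, -2.10 and -0.91 in Control_+DEX, and -1.62 and 1.05 in Control_-DEX. Ctsg, which encodes cathepsin G, had 5.95 and 4.10 in shRNA2_+DEX, 3.78 and 4.49 in shRNA1_+DEX, 1.87 and 3.66 in Control_+DEX, and 2.41 and 5.33 in Control_-DEX. For Ctsg the margin between the groups was narrow: the lower shRNA1_+DEX array, at 3.78, was just above the higher Control_+DEX array, at 3.66.

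The secondary granule genes had wider margins. Camp encodes cathelicidin, an antimicrobial peptide precursor, and had 4.32 and 0.95 in shRNA2_+DEX, 1.71 and 1.66 in shRNA1_+DEX, -1.15 and -1.10 in Control_+DEX, and 0.12 and 1.89 in Control_-DEX. The Control_+DEX arrays were nearly equal and lay below all others. Ngp, the gene for neutrophilic granule protein, a cystatin-like protein, had 2.32 and -1.14 in shRNA2_+DEX, 0.15 and -0.19 in shRNA1_+DEX, -2.52 and -2.77 in Control_+DEX, and -2.91 and -1.44 in Control_-DEX. Every shRNA array was above every control array for Ngp, with or without DEX.

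Ltf, which encodes the iron-binding protein lactotransferrin, had 1.42 and -1.39 in shRNA2_+DEX, -1.10 and -0.32 in shRNA1_+DEX, -3.09 and -2.86 in Control_+DEX, and -3.05 and -0.81 in Control_-DEX. Lcn2 encodes lipocalin 2, which binds bacterial siderophores, and had 3.59 and 0.79 in shRNA2_+DEX, 1.36 and 1.98 in shRNA1_+DEX, -1.06 and -0.21 in Control_+DEX, and -1.59 and 0.31 in Control_-DEX. All shRNA arrays were above all control arrays for Lcn2 as well, while for Ltf Control_-DEX replicate 2 reached into the range of the shRNA arrays.

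The S100 genes followed each other closely. S100a8 had 5.99 and 3.07 in shRNA2_+DEX, 3.85 and 4.22 in shRNA1_+DEX, 1.80 and 2.86 in Control_+DEX, and 2.03 and 4.11 in Control_-DEX. S100a9 had 7.85 and 4.85 in shRNA2_+DEX, 5.99 and 5.93 in shRNA1_+DEX, 4.01 and 4.53 in Control_+DEX, and 3.90 and 5.69 in Control_-DEX. In both genes shRNA2_+DEX replicate 2 was the shRNA array nearest to the controls.

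By group mean, 9 of 10 genes had the order Control_+DEX, Control_-DEX, shRNA1_+DEX, shRNA2_+DEX from low to high, and in Lcn2 the first 2 places were exchanged. How many of all genes had that order is not given. Neighbours in that order mostly did not differ beyond their spread. Among the 9 genes, shRNA1_+DEX and shRNA2_+DEX overlapped in 9, Control_-DEX and shRNA1_+DEX in 7, and Control_+DEX and Control_-DEX in 7. In bulk RNA of this kind, fewer cells of a type and less RNA per cell cannot be told apart.

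The comparison of shRNA1_+DEX with Control_+DEX asks what follows a hairpin against the RNA-binding protein under glucocorticoid. Zfp36l2 mRNA was lowered and not lost, at 4.09 and 3.92 in shRNA1_+DEX against 5.55 and 5.42 in Control_+DEX. It was at 3.49 and 3.85 in Control_-DEX. All 10 genes were higher with shRNA1 with no overlap between the groups, where 18% of all genes tested were. Camp differed by 2.81 (SE 1.11), with 2.86 on slide 1 and 2.75 on slide 2. Each SE and limma p-value here draws on the spread in all 4 groups of the fit, not only in the groups compared. For Camp the SD was 0.04 in shRNA1_+DEX and in Control_+DEX, 2.38 in shRNA2_+DEX and 1.25 in Control_-DEX, with 2 arrays each. Ngp differed by 2.62 (SE 1.11), Lcn2 by 2.31 (SE 1.04) and Ltf by 2.27 (SE 1.08). Only 0.136% of all genes had a larger positive difference than Camp. The primary granule genes differed by 0.97 (Mpo) to 1.37 (Ctsg), and S100a8 and S100a9 by 1.70 each.

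The class medians of shRNA1_+DEX minus Control_+DEX were 2.46 for the secondary granule genes, 1.24 for the primary granule genes and 1.70 for the S100 genes, where the median of all genes was 0.18. The secondary median held on both slides, at 2.54 and 2.56, whereas the primary median was 1.71 on slide 1 and 0.76 on slide 2. At least 2-fold higher on both slides were 6 of 10 genes, namely the 4 secondary granule genes and both S100 genes, against 3.04% of all genes. Limma called 0 of the 19141 genes (0%) at an adjusted p below 0.05, both without and with the replicate number (the slide) as a block, and 400 had an unadjusted p under 0.05 without it. The adjusted p of the granule genes in limma was 0.923, and with the block the lowest was 0.283 (Camp).

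With shRNA2 the same 10 genes were higher than in Control_+DEX with no overlap, against 7.26% of all genes. Camp again had the largest difference, 3.76 (SE 1.11, a fold of 13.5), followed by Ngp at 3.23 (SE 1.11), Ltf at 2.99 (SE 1.08) and Lcn2 at 2.83 (SE 1.04). The primary granule genes ranged from 1.97 (Mpo) to 2.54 (Elane), and S100a8 and S100a9 differed by 2.19 and 2.08. These comparisons share the Control_+DEX arrays, so the direction in one is not independent of the direction in the other.

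The shRNA2 differences came mostly from slide 1. The median of the 10 genes was 4.14 on slide 1 and 0.83 on slide 2, and Mpo, for example, differed by 3.44 on slide 1 and by 0.51 on slide 2. On slide 2 the secondary granule genes differed by 1.00 to 2.05, the primary granule genes by 0.44 to 0.99 and the S100 genes by 0.21 and 0.32. At least 2-fold higher on both slides were 4 of 10 genes, which were the 4 secondary granule genes, against 0.758% of all genes. Limma without a block called 0 of the 19141 genes (240 at an unadjusted p under 0.05), and the adjusted p of every granule gene was 1. With the block it called 1 gene (0.00522%), which was no granule gene, and the lowest adjusted p of a granule gene was 0.780. Without shRNA2_+DEX replicate 1 the median of the 10 genes was 1.31, against 2.46 with all arrays.

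**Figure D2:**
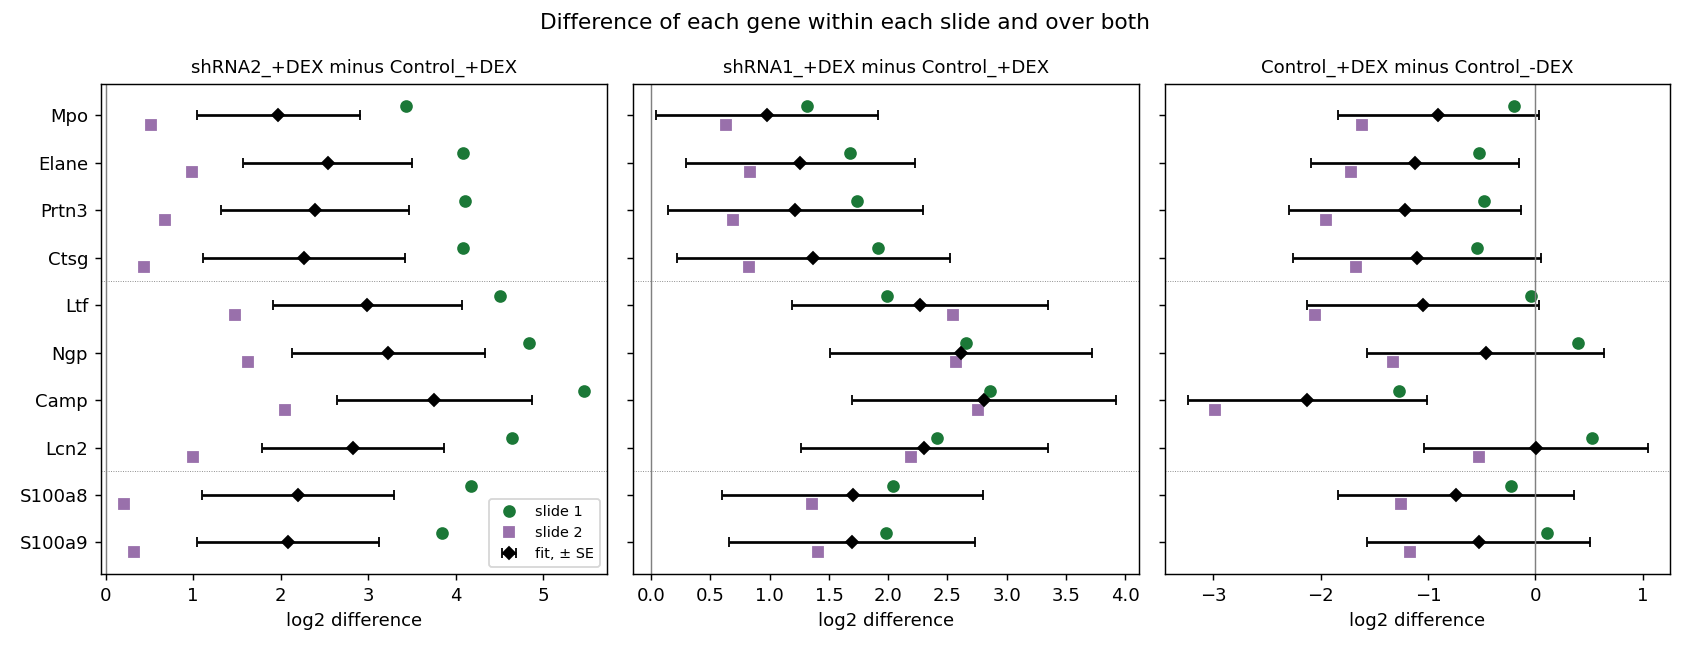
Log2 difference (horizontal axes) of each granule gene in 3 comparisons; diamonds with bars are the limma estimate ± SE over both slides, circles the difference on slide 1 and squares that on slide 2, and dotted lines part the primary, secondary and S100 genes. With shRNA1 the secondary granule genes sit at 1.99 or more on both slides, and with shRNA2 the slide 2 values of all genes are much smaller than those of slide 1.

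Set directly against each other, shRNA2_+DEX and shRNA1_+DEX overlapped in all 10 genes. Most genes overlapped here, as only 4.57% of all genes were higher and 12.3% lower with shRNA2 with no overlap. All 10 estimates were positive, against 36.3% of all genes. The difference of shRNA2_+DEX minus shRNA1_+DEX had a median of 0.81, made of 2.21 on slide 1 and -0.83 on slide 2. All 10 genes were higher with shRNA2 on slide 1 and 1 of 10 on slide 2 (Elane, by 0.15). Limma called 0 of the 19141 genes here too, with and without the block (455 at an unadjusted p under 0.05 without it). The sign of the median thus differed between the replicates, and slide and replicate cannot be told apart, since replicate number and slide coincide.

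The size of the secondary relative to the primary granule genes was then compared between arrays. The mean of the 4 secondary genes minus the mean of the 4 primary genes is unaffected by the scale of an array, and it has meaning only as a difference between arrays, since the probes differ. It was -1.80 and -2.63 in shRNA2_+DEX, -1.91 and -1.74 in shRNA1_+DEX, -2.73 and -3.51 in Control_+DEX, and -3.07 and -3.52 in Control_-DEX. All 4 shRNA arrays lay above all 4 control arrays, although the lowest shRNA array, shRNA2_+DEX replicate 2, was only 0.1 above the highest control array. Gene by gene the separation was less general. No share over pairs of other genes is given, so the counts of pairs describe only these members. Of the 16 pairs of a secondary and a primary gene, 4 kept all shRNA arrays above all control arrays (Ltf, Ngp and Lcn2 relative to Mpo, and Ngp relative to Elane), and 8 did so among the arrays with DEX; none of the pairs with Prtn3 or Ctsg did over all 8 arrays. With the normexp background the ranges overlapped, at -2.79 to -1.92 on the shRNA arrays against -3.67 to -2.68 on the control arrays.

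Against Control_+DEX, the secondary genes were higher relative to the primary genes by 0.91 with shRNA2 (0.94 on slide 1 and 0.88 on slide 2) and by 1.29 with shRNA1 (0.82 and 1.77). The shRNA2 value was 0.49 without shRNA2_+DEX replicate 1 and 1.32 without shRNA2_+DEX replicate 2, and 1.30 without Control_+DEX replicate 1 and 0.52 without Control_+DEX replicate 2. Control_+DEX minus Control_-DEX was 0.18 (0.34 and 0.02). The S100 genes relative to the primary genes were at 2.21 and 1.53 in shRNA2_+DEX, 2.48 and 2.55 in shRNA1_+DEX, 2.13 and 1.92 in Control_+DEX, and 1.75 and 1.39 in Control_-DEX, so shRNA2_+DEX overlapped the controls on that measure. The secondary relative to the S100 genes were at -4.00 and -4.16 in shRNA2_+DEX, -4.39 and -4.29 in shRNA1_+DEX, -4.86 and -5.43 in Control_+DEX, and -4.82 and -4.92 in Control_-DEX, again with the 4 shRNA arrays above the 4 control arrays. No p-value is given for these class measures, because the members were chosen as a set.

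**Figure D3:**
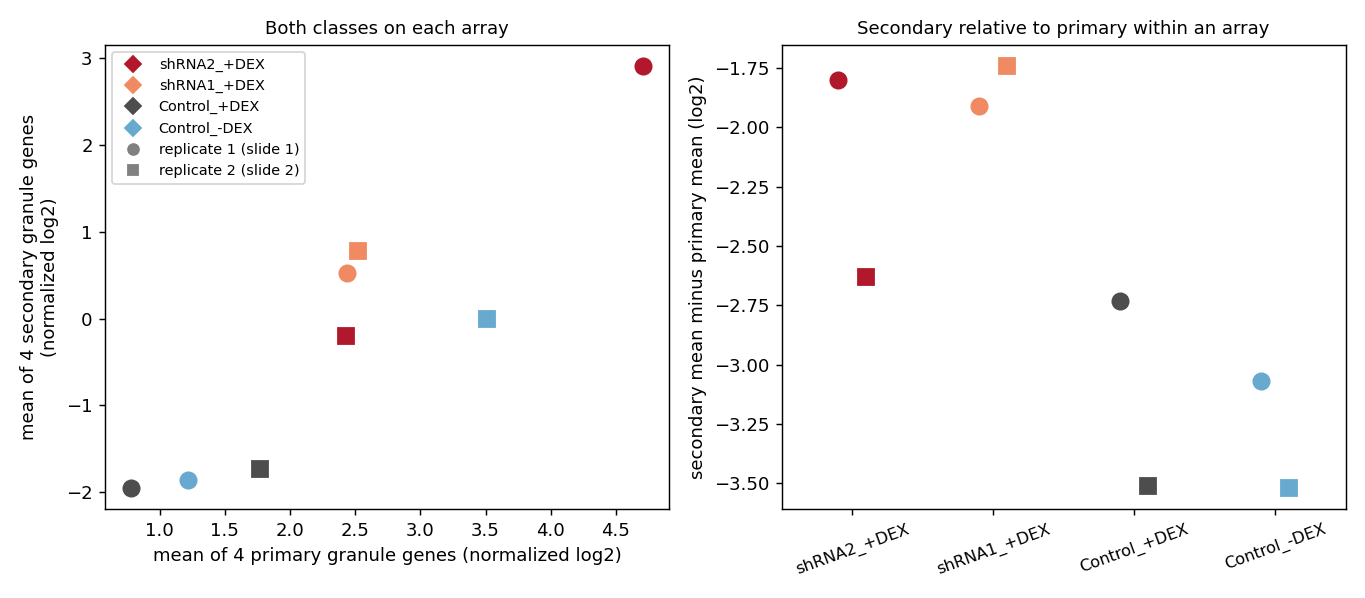
Left, mean of the 4 secondary (vertical) against mean of the 4 primary granule genes (horizontal), both normalized log2, for the 8 arrays; right, the secondary mean minus the primary mean of each array (log2) by group, with circles for replicate 1 and squares for replicate 2. Control_-DEX replicate 2 has a higher primary mean (3.51) than both shRNA1_+DEX arrays (2.44 and 2.52) but a lower secondary mean (-0.01 against 0.53 and 0.78).

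The comparison of Control_+DEX with Control_-DEX asks what the glucocorticoid did to these genes in control cells. The difference was negative in 9 of 10 genes, against 61.6% of all genes, with a median of -0.97 where all genes had -0.08, but the groups overlapped in 8 of 10. Camp differed by -2.13 (SE 1.11) and Elane by -1.12 (SE 0.97); these 2 were lower with DEX with no overlap, against 16.5% of all genes. Lcn2 differed by 0.00 (SE 1.04). The median was -0.21 on slide 1 and -1.64 on slide 2. Markers of some other cells were lower with DEX too. These were 9 of 10 megakaryocyte markers (median -0.97, 8 with no overlap) and 9 of 11 monocyte markers (median -1.05, 6 with no overlap). All 11 of 11 erythroid markers were lower (median -0.41, 7 with no overlap). The eosinophil list was mixed, with 3 of 5 lower (median -1.08), near the 61.6% of all genes. These 3 were Prg2 (-2.88), Ear2 (-1.27) and Ear6 (-1.08), all with no overlap, against 16.5% of all genes. Il5ra was higher by 2.12 with no overlap, and Siglecf by 0.12 with overlap. The mast cell and basophil list was mixed as well, with 5 of 7 lower (median -0.92, 3 with no overlap) and Hdc higher by 2.85. Lymphoid markers were lower in 4 of 5 (median -0.14), whereas hepatocyte markers were higher in 4 of 6 (median 0.53). The part of other cells in the granule gene difference was not tested.

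Within Control_-DEX, replicate 2 was higher than replicate 1 in all 10 genes, and 2 arrays do not show which of them deviates. Without replicate 2 the median of Control_+DEX minus Control_-DEX was 0.23, and only Camp (-1.24) and Elane (-0.42) stayed negative; without replicate 1 the median was -1.91. Limma called 0 of the 19141 genes without a block (594 at an unadjusted p under 0.05) and 44 genes, or 0.23%, with it; none of them was a granule gene, and the lowest adjusted p of a granule gene with the block was 0.717 (Camp). At these 2 arrays a group, an exact permutation test of a single gene could not go below p = 0.333 (two-sided).

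Camp and Mpo each had a second probe, which gave the same direction in every comparison. The Camp probes lie at chr9:109749911-109749970 and chr9:109749901-109749950 (mm9, minus strand), the Mpo probes at chr11:87617840-87617899 and chr11:87615121-87615180 (plus strand). With shRNA2 the second Camp probe differed by 3.56 and with shRNA1 by 2.63, and the second Mpo probe by 2.09 and 0.66. The probe with the higher mean was used for each gene. The file places 50 of the second Camp probe's 60 bases, so the printed coordinates share fewer bases than the sequences do. The second Camp probe read 0.93 to 1.21 lower than the first on the 8 arrays. The overlap of the Camp probe sequences is 50 bases long and holds 2 substitutions, A6G and T10C, counted from 1 at the 5′ end of the 30 bases of overlap shown here, with the differing bases in capitals and the first probe first.
Camp, first probe: cagccAgagTagtaggcctgccttggcctg
Camp, second probe: cagccGgagCagtaggcctgccttggcctg

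The probes of Ltf and Ngp, the secondary granule genes next to Camp in size of difference with shRNA2, are given because each of these genes rests on a single probe. The Ltf probe lies at chr9:110942873-110942932 (mm9, plus strand). The Ngp probe spans chr9:110324266-110324814 (mm9, plus strand), which is longer than its 60 bases. Whether the probes lie in coding or untranslated sequence was not looked up, since no annotation of that build was used here.
Ltf: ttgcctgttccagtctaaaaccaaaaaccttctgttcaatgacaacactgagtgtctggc
Ngp: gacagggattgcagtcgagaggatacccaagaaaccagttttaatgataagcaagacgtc

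Other neutrophil granule and effector genes were described from a list of 38, of which 29 were tested. With shRNA2, 29 of 29 differed in the positive direction, against 51.4% of all genes (median 1.99, where all genes had 0.01; 3.76 on slide 1 and 0.32 on slide 2). The largest difference was that of Chil3, a chitinase-like protein, at 3.22, and the smallest that of Cyba, a subunit of the NADPH oxidase, at 0.15. With shRNA1, 26 of 29 were higher, against 62.1% of all genes (median 1.41, where all genes had 0.18; 1.52 and 1.31 on the slides), led by Wfdc21 at 2.27, with Cyba lowest at -0.44. Control_+DEX minus Control_-DEX was positive in 7 and negative in 22, where 61.6% of all genes were negative. Its median was -0.55 (all genes -0.08), with 0.22 on slide 1 and -1.35 on slide 2. The differences lay between Chil3 at 2.90 and Fcnb, a ficolin, at -1.72. None of the 29 passed limma's test in any comparison.

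Chil3 ran opposite to the granule genes in the DEX comparison. It read -1.27 and -1.24 in Control_+DEX, against -4.59 and -3.72 in Control_-DEX. Its level was 4.11 and -0.18 in shRNA2_+DEX and 0.30 and 0.43 in shRNA1_+DEX.

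Of 18 granulocyte regulators, all tested, 14 were higher with shRNA2 (median 0.43) and 12 with shRNA1 (median 0.26), and none passed the test. Of all genes 51.4% were higher with shRNA2 (median 0.01). With shRNA1 the count and median of the list are near those of all genes (62.1% higher, median 0.18). Cebpe, the gene for C/EBP epsilon, had 2.94 and 0.53 in shRNA2_+DEX, 0.75 and 0.96 in shRNA1_+DEX, -1.02 and -0.34 in Control_+DEX, and -0.85 and 1.58 in Control_-DEX. Its differences from Control_+DEX were 2.42 (SE 1.03) with shRNA2 and 1.54 (SE 1.03) with shRNA1. Irf8, a regulator of monocyte fate, had the largest difference of the list with shRNA2, 3.12 (SE 0.94; 4.57 and 1.67 on the slides), and the most negative one with DEX, -1.96 (SE 0.94). The lowest of the list with either hairpin was Id1, an inhibitor of basic helix-loop-helix factors, at -0.30 with shRNA2 and -0.84 with shRNA1. Spi1, the gene for PU.1, differed by 0.06 (SE 0.68) with shRNA2 and by -0.56 (SE 0.68) with shRNA1.

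The genes whose pattern over the 8 arrays was most like each granule class were ranked among 14166 named genes by Pearson correlation with the centred class mean. This is a description over arrays that share slides and includes shRNA2_+DEX replicate 1; the 6-array value leaves out that array and Control_-DEX replicate 2. Nearest to the primary granule genes were 1700020L24Rik (0.998), Mtus1 (0.994), 2310040G24Rik (0.993), Ly6c1 (0.991), Cebpe (0.991), Hsd11b1 (0.988), Mgst2 (0.986) and Tyrobp (0.985). Nearest to the secondary granule genes were Olfml2b (0.994), Wfdc21 (0.992), Stfa2l1 (0.988), Stfa2 (0.987), Cyp4f18 (0.984), Itgb2l (0.982), Ifitm6 (0.976) and Pik3r6 (0.976). Over 6 arrays Cebpe kept 0.975 with the primary class and Olfml2b 0.992 with the secondary class. Olfml2b differed by 3.45 with shRNA2 and by 3.01 with shRNA1. None of the 8 genes nearest to one class was among the 8 nearest to the other.

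Markers of some other blood cells were highest on shRNA2_+DEX replicate 1, as the granule genes were, but not on shRNA2_+DEX replicate 2. The summed signal of 11 tested monocyte and macrophage markers (of 16 listed), in multiples of the array's 75th percentile, was 3.61 to 25.4 in shRNA2_+DEX, 5.27 to 11.1 in shRNA1_+DEX, 3.11 to 4.01 in Control_+DEX and 4.23 to 6.94 in Control_-DEX, and 10 or 11 of the 11 were above background on each array. That of the 10 megakaryocyte and platelet markers was 12.99 to 198 in shRNA2_+DEX, 21.2 to 80.7 in shRNA1_+DEX, 16.4 to 28.8 in Control_+DEX and 51.45 to 71.4 in Control_-DEX. For both lists shRNA2_+DEX replicate 1 had the highest sum of the 8 arrays. By contrast, shRNA2_+DEX replicate 2 had the lowest megakaryocyte sum, and its monocyte sum lay below that of Control_+DEX replicate 1. Such sums follow the brightest probes of a list. By the mean log2 of the monocyte markers, shRNA2_+DEX replicate 2 (-3.56) lay above both Control_+DEX arrays (-3.86 and -3.88).

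The 5 tested eosinophil markers summed to 0.706 to 3.81 in shRNA2_+DEX, 0.833 to 1.36 in shRNA1_+DEX, 0.479 to 1.14 in Control_+DEX and 0.515 to 1.87 in Control_-DEX. The 7 mast cell and basophil markers summed to 15.1 to 35.0 in shRNA2_+DEX, 12.1 to 40.4 in shRNA1_+DEX, 17.0 to 44.6 in Control_+DEX and 6.22 to 11.2 in Control_-DEX. Hdc, the gene for histidine decarboxylase, made up most of that sum on the arrays with DEX, and it differed by 2.85 in Control_+DEX minus Control_-DEX. Mcpt8, a basophil protease, differed by -2.95 there and by 1.92 with shRNA2, in the directions of the granule genes and with no overlap in either. With shRNA2 that was 3.81 on slide 1 and 0.03 on slide 2, and the groups were parted only by -4.26 against -4.28. Of the 7 markers 4 were higher and 3 lower with shRNA2. Cma1, a mast cell marker, was lower with no overlap with either hairpin, by -0.85 with shRNA2 and -1.34 with shRNA1. The 11 erythroid markers summed to 533 to 1332 in shRNA2_+DEX, 792 to 1899 in shRNA1_+DEX, 532 to 972 in Control_+DEX and 758 to 1290 in Control_-DEX. The 5 lymphoid markers summed to 1.54 to 3.94 and the 6 hepatocyte markers to 1.27 to 2.74 over all arrays.

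With shRNA2 the median difference from Control_+DEX was 1.85 for the monocyte markers, 1.19 for the megakaryocyte markers, 0.96 for the eosinophil markers, 0.62 for the mast cell and basophil markers and -0.01 for the erythroid markers. The granule classes had 3.11 (secondary), 2.33 (primary) and 2.14 (S100). On slide 2 alone the monocyte, megakaryocyte and eosinophil markers had 0.28, -0.10 and 0.56, and the secondary, primary and S100 genes 1.55, 0.60 and 0.27, so that the S100 genes were no higher than the monocyte markers there. With shRNA1 the marker medians were 0.86 (monocyte), 0.89 (megakaryocyte), 0.98 (eosinophil), 0.60 (mast cell and basophil) and 0.49 (erythroid), and the granule classes had 2.46 (secondary), 1.24 (primary) and 1.70 (S100). The eosinophil medians hide a split. Prg2 and Ear2 differed by 3.02 and 3.49 with shRNA2 and by 2.20 and 2.15 with shRNA1, all with no overlap. On slide 2 with shRNA2 they had 1.68 and 1.82, as large as the secondary granule genes. With shRNA2 and shRNA1, Ear6 differed by 0.77 and 0.98, Siglecf by 0.96 and -0.06, and Il5ra by -0.51 and -0.27. The part of other cells in the granule gene differences was not tested.

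**Figure D4:**
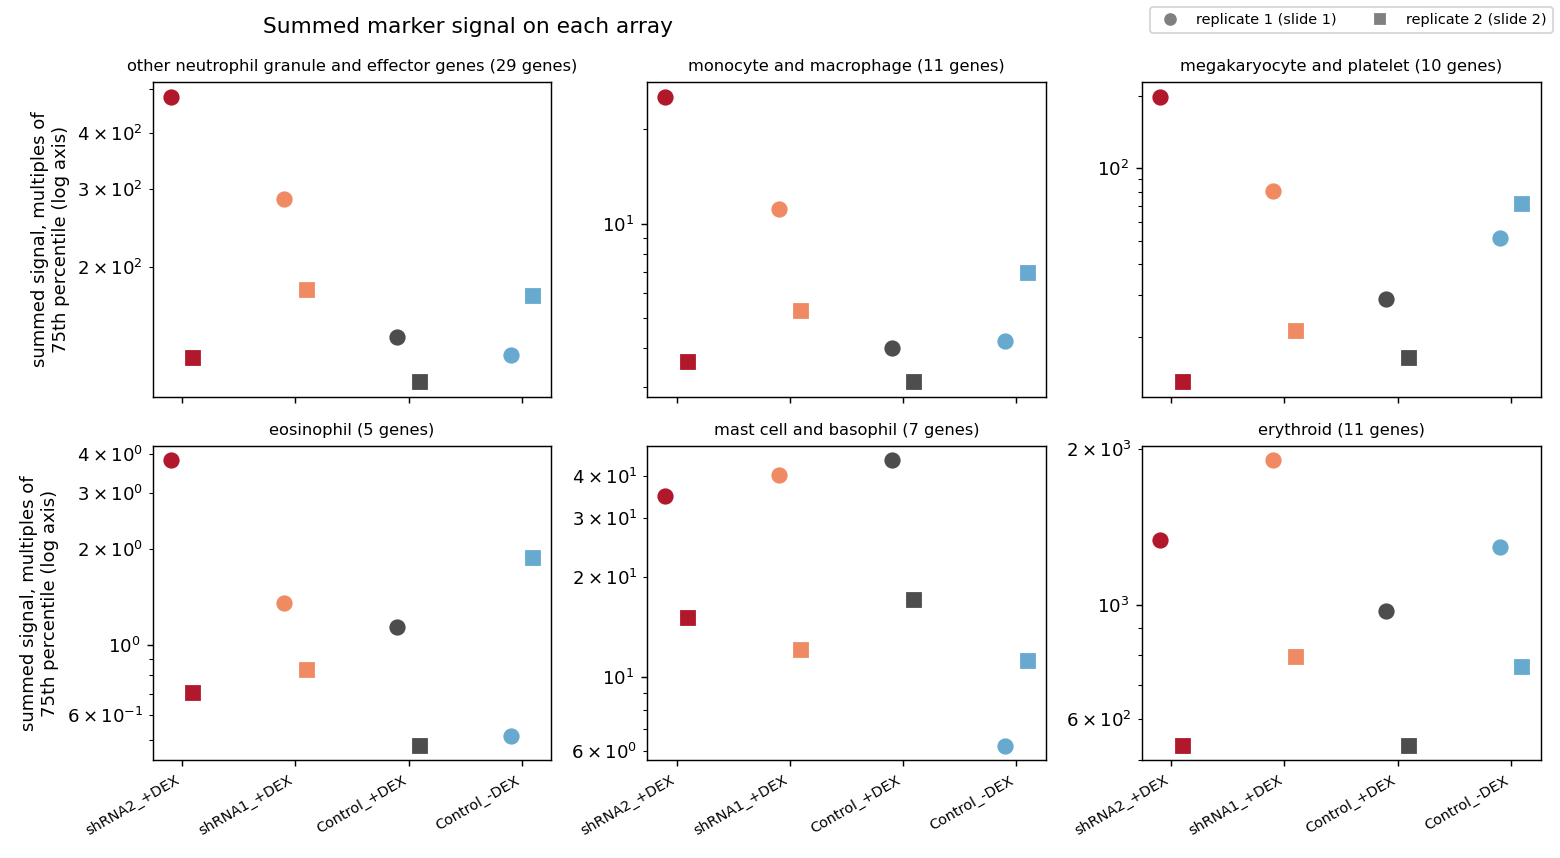
Summed signal (vertical axes, log scale, in multiples of the array's 75th percentile) of 6 marker lists on each of the 8 arrays by group; circles are replicate 1 and squares replicate 2. shRNA2_+DEX replicate 1 is highest for the neutrophil, monocyte, megakaryocyte and eosinophil lists, while the mast cell list is lowest in Control_-DEX and the erythroid list is highest in shRNA1_+DEX replicate 1.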

How the data were processed

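Cy3-labelled total RNA of 8 samples was hybridised to arrays of 1 colour. Per the file headers, the authors measured the spots with version 10.1.1.1 of Agilent Feature Extraction, and the submitters' processing notes also name limma. The deposited intensity (processed signal, on a linear scale) was log2-transformed, and the array's 75th percentile was subtracted. The authors' deposited log2 table, for which no source used here gives the steps, was an alternative only. Its columns had medians of 6.65 to 6.66 and a rank correlation of 1 with the median signal of the same array; its scaling stays unknown.

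Each array had 44397 spots. The 1377 controls and spots marked as outliers were dropped, repeated spots were averaged, and 441 of 39429 probes had no usable spot on some array. Accessions found in the reference table gave names to 26581 probes, and 12848 kept the name in the file. Tested probes were well above background on both arrays of 1 or more groups, and the probe with the highest mean stood for its gene.

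One model over 8 arrays was fitted with limma 3.58.1 (lmFit, eBayes; R 4.3.3, version 1.17.8 of data.table; plots with matplotlib 3.10.9), with Benjamini-Hochberg adjustment over all 19141 genes at 0.05. The script was tested on simulated data. A replicate number marks a slide, per the file headers, and replicate differences correlated between groups at 0.431 to 0.859, so the numbers pair the arrays. Alternatives were quantile normalization, median scaling, normexp background (offset 50), the authors' log2 table, no filter on dim probes, the mean of a gene's probes, the replicate block, and leaving out each array. Leaving out shRNA2_+DEX replicate 1 and Control_-DEX replicate 2 together was added after the data were seen. The number of arrays limits the precision.

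All 10 granule genes are named. From the list of other neutrophil genes, those with the largest and smallest difference with either hairpin and with DEX are named. From the regulator and mast cell lists only some such genes are named. Every tested eosinophil marker is named, and from the other marker lists none. Cebpe, Spi1 and the eosinophil markers other than Il5ra were added after their values were seen. The members and lists were chosen with earlier results of these data known. Promoters are from RefSeq, GRCm38.p6.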

Additional observations from a re-analysis of the deposited data

How the results depend on the processing

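For shRNA2 and shRNA1 against Control_+DEX, each of the 10 genes kept its positive direction and stayed short of the threshold under every alternative run (160 of 160 gene values in each comparison). Leaving out 1 array gave a median of the 10 genes of 1.31 to 3.82 for shRNA2 and of 1.30 to 2.25 for shRNA1, with 2.25 reached without Control_+DEX replicate 2. Scaling by the array's median moved the median of all genes from 0.01 to -0.23 for shRNA2, from 0.18 to -0.22 for shRNA1 and from -0.08 to 0.02 for DEX, and the 10 genes then had medians of 2.22, 1.30 and -0.88. The replicate block moved the count of all genes called to 44 for DEX and to 1 for shRNA2, and changed no other call. The gain of secondary over primary granule genes with shRNA2 was 0.69 with normexp background, 0.86 with the authors' log2 table, 0.87 with the mean of a gene's probes, 0.49 to 1.32 without 1 array, and 0.49 without shRNA2_+DEX replicate 1 and Control_-DEX replicate 2 together. That gain was 0.91 to 1.68 for shRNA1 and -0.21 to 0.57 for DEX without 1 array.

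For DEX, 142 of 160 gene values kept their direction and 18 reversed. Lcn2 was at -0.05 with normexp and -0.07 with the authors' log2 table. Without Control_-DEX replicate 2, alone or together with shRNA2_+DEX replicate 1, the median was 0.23, with Mpo at 0.19, Prtn3 at 0.12, Ctsg at 0.36, Ltf at 0.07, Ngp at 0.27, S100a8 at 0.30 and S100a9 at 0.37. These are the upper ends of the ranges without 1 array, whose lower ends were -1.91 for the median, -2.0 for Mpo, -2.55 for Prtn3, -2.57 for Ctsg, -2.16 for Ltf, -1.20 for Ngp, -1.78 for S100a8 and -1.42 for S100a9; Lcn2 ranged from -0.95 to 0.95.

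For shRNA2_+DEX minus shRNA1_+DEX, 142 of 160 gene values kept their direction. Without shRNA2_+DEX replicate 1, alone or together with Control_-DEX replicate 2, Mpo was at -0.08, Elane at -0.16, Ctsg at -0.03, Ltf at -0.68, Ngp at -1.11, Camp at -0.74, Lcn2 at -0.88, S100a8 at -0.96 and S100a9 at -1.11. The highest values without 1 array were 2.08, 2.72, 1.82, 2.13, 2.34, 2.63, 1.92, 1.95 and 1.89 for the same genes in that order, and the median ranged from -0.71 to 2.10. The cause of these reversals beyond the array left out was not tested.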
